A study of Rattus norvegicus with 24 samples.

Results

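The kidney transcriptome of outbred Sprague Dawley (CD) rats was compared between 3 dams at day 18 of pregnancy (CD-P18) and 3 non-pregnant females (CD-NP). All 6 CD columns of the RNA-seq count table were taken, out of 12 RNA-seq libraries and 24 libraries in the series. The other RNA-seq libraries come from inbred Brown Norway (BN) rats, 3 per stage, which the study uses as a model of complicated pregnancy, whereas CD rats stand for normal pregnancy. All animals were untreated 2-month-old females by their labels, with no transgene or deletion, and each library is a separate rat. RNA came from a kidney cross-section with both cortex and medulla. Ribosomal RNA was depleted, stranded total RNA was read from a single end, and the reads were counted on Ensembl genes of the rat assembly Rnor_6.0. The question was which renal genes change in a normal pregnancy, in which direction and at what abundance.

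The maternal kidney adapts to pregnancy with higher blood flow and filtration, retention of sodium and water, and a changed handling of calcium, phosphate and glucose. Hormones of the placenta, ovary and adrenal act on the nephron in this period. The nephron consists of the glomerulus, where podocytes form the filter, followed by the proximal tubule, the loop of Henle, the distal convoluted tubule and the collecting duct, and between them lie vessels, fibroblasts and resident macrophages. A cross-section holds all of these cells, so that fewer cells of a type and less RNA per cell cannot be told apart in its values.

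Between 8867274 and 11879451 reads per CD rat were counted on genes, and 14212 of 32883 genes had enough reads to be tested. Levels are given as counts relative to library size (CPM) after TMM scaling, which corrects for the depth and composition of each library. On the first principal component, which held 32.9% of the variance of the 6 CD rats, the P18 rats lay between 18.65 and 20.35 and the NP rats between -27.55 and -5.09. The rat CD-NP 1 stood apart on the second component (23.9% of the variance), at 35.86 against -14.73 to 7.25 in the other 5 rats. Its mean correlation over genes was 0.976 with its own group and 0.977 with the P18 group, and results that rest on it are given below with and without it.

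Pregnancy changed 669 genes in CD kidney, of which 364 were higher and 305 lower at P18. A gene was called a differentially expressed gene (DEG) at a Benjamini-Hochberg adjusted p under 0.1 in edgeR's quasi-likelihood test and a log2 fold change beyond 0.322 in either direction, the minimum fold of the study's methods. These are 4.71% of the genes tested, with 2.56% called higher and 2.15% called lower. The median fold was 1.60 among the genes that rose and 1.48, as NP over P18, among those that fell. Changes over 2-fold were found in 109 genes that rose and in 52 that fell, whereas 314 DEGs changed by less than 1.5-fold. In 643 of the 669 DEGs the 3 P18 rats did not overlap the 3 NP rats. Over all genes tested, non-overlapping groups were found in 11.1% higher at P18 and in 10.4% lower. The median log2 fold change of all genes was -0.0096. Without CD-NP 1 the count was 715. It was 341 without CD-NP 2, 389 without CD-P18 1 and 327 without CD-P18 3, so these rats moved it by more than 1.5 times. Of the 127 called genes named in the text, 70 kept their call whichever rat was left out. The p-values rest on a spread between rats that was estimated from all 12 RNA-seq libraries, BN rats included. A fit of the 6 CD libraries alone gave 564 DEGs, of which 502 were among the 669. With 3 against 3 an exact permutation test of a single gene cannot go below 0.1.

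**Figure D1:**
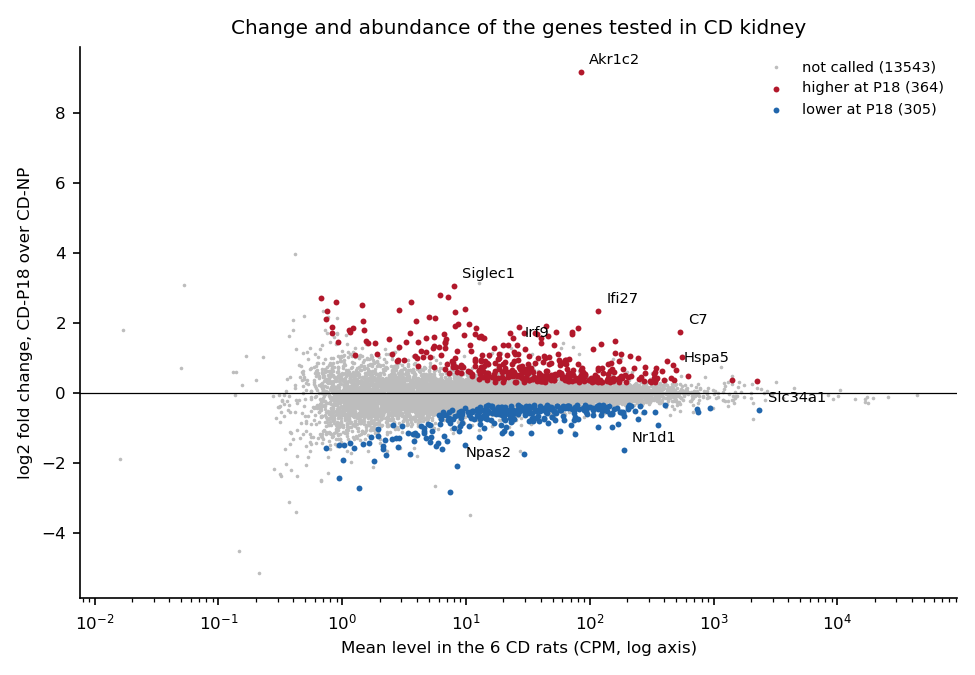
Each point is 1 of the 14212 genes tested, with its mean level in the 6 CD rats (CPM, log axis) against the log2 fold change of CD-P18 over CD-NP. Called genes are coloured by direction (364 higher, 305 lower), and the widest changes sit at low levels, while Hspa5, C7, Nr1d1 and Slc34a1 are called at high levels. The point of Akr1c2, which had 3 reads or fewer in each NP rat, depends on the fit and is no measured fold.

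The response reached from scarce to abundant transcripts. When the tested genes were put into 10 equal bins by mean CPM, the lowest bin (0.0161 to 1.91 CPM) held 29 DEGs, or 2.04% of its genes, and the highest bin (124 CPM and above) held 94, or 6.61%. In the highest bin 59 genes rose and 35 fell. The median size of the log2 change among DEGs was 1.76 in the lowest bin and 0.50 in the highest. The median standard error over all genes fell alongside, from 0.46 to 0.081, so a scarce gene needed a wider change to be called. Among the 100 most abundant genes 6 were DEGs (2 higher, 4 lower), and among the 1000 most abundant 65 were (42 higher, 23 lower). Added up, the genes called higher took 22380 to 22770 CPM in the NP rats and 33700 to 35550 in the P18 rats, and those called lower took 21280 to 23650 and 14850 to 15910. These sums were fixed in direction by the choice of genes and are given to show how much of the transcriptome took part. The BN rats entered the filter, the scaling and the estimate of spread, but not the contrast that chose these genes. In the BN rats the same genes took 24740 to 26490 CPM at NP and 26210 to 28940 at P18 for those higher in CD. For those lower in CD they took 18970 to 21040 and 17660 to 19540. The BN groups overlapped in both sums.

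**Figure D2:**
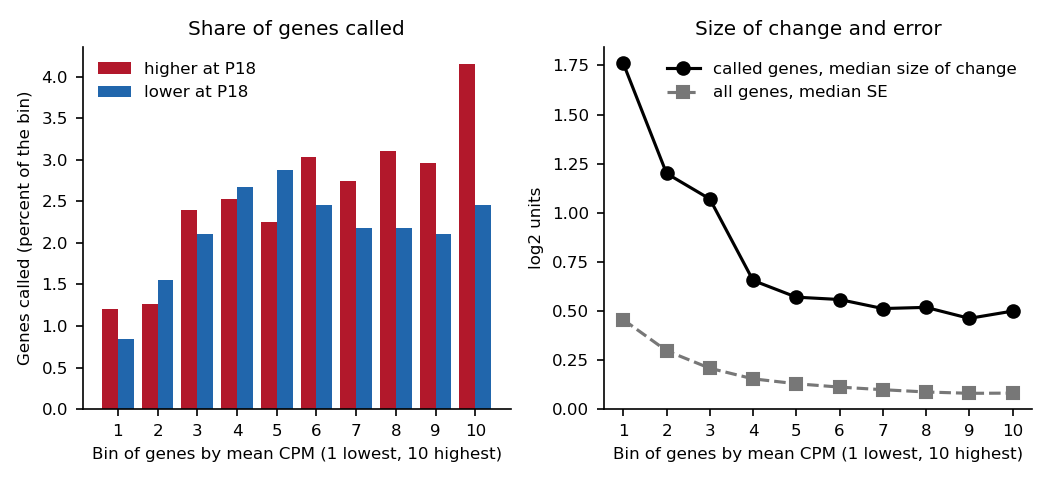
Tested genes are split into 10 bins of equal size by mean CPM in the CD rats. Left, bars give the percent of each bin called higher or lower at P18, with 4.15% and 2.46% in the highest bin. Right, circles give the median size of the log2 change among called genes (1.76 in the lowest bin, 0.50 in the highest) and squares the median standard error of all genes.

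The count table names genes by Ensembl identifier, and a symbol could be paired with 2922 of the 14212 tested genes. These are genes with an unadjusted p under 0.01 in some comparison of these same samples, so that members of a gene list with a value lean towards genes that changed, and the list counts are no independent evidence of a direction. Among genes with a symbol 21.3% were DEGs, 11.5% higher and 9.79% lower. These are the shares to set beside the count of each list. Of the 669 DEGs, 623 have a symbol. The 30 lists of pathways and cell types hold 250 tested genes and 99 of the DEGs. The plot of list members shows that the interferon, complement and macrophage lists have the highest medians and the podocyte list is among the lowest.

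**Figure D3:**
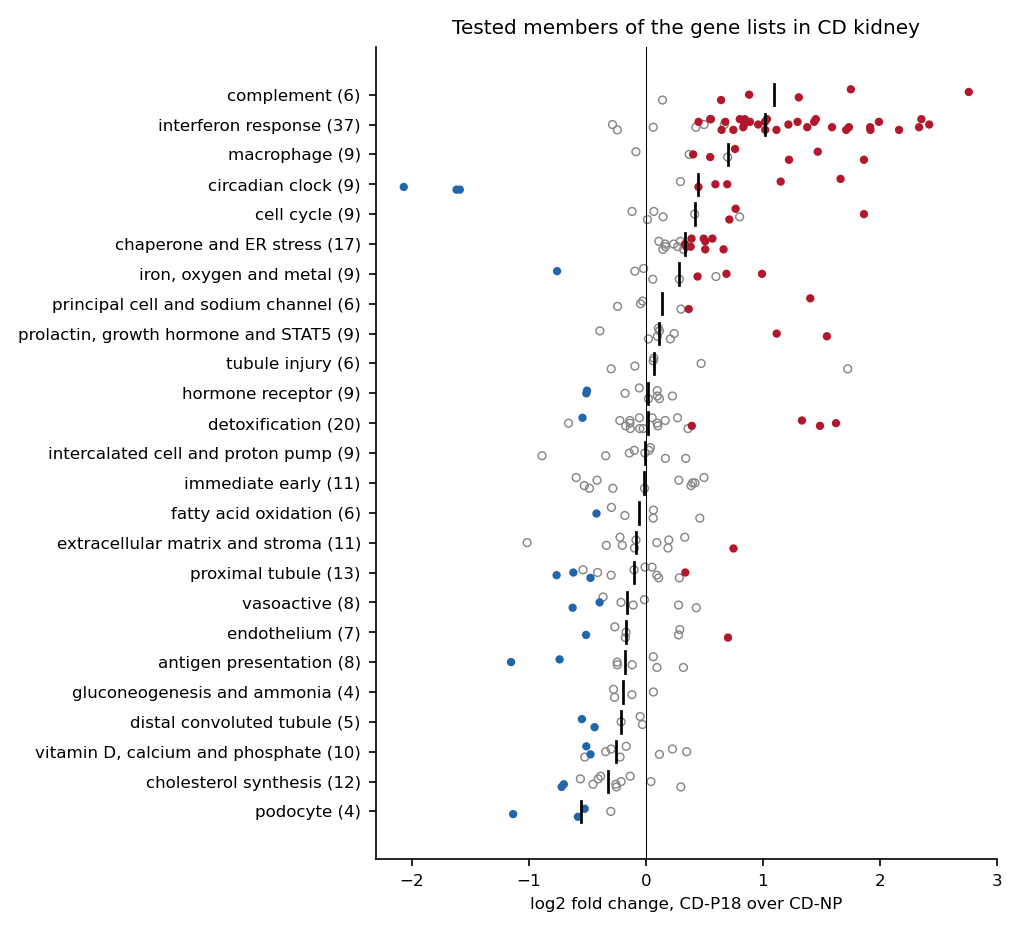
Each row is a gene list with at least 4 tested members (their number in brackets), and each point is a member at its log2 fold change of CD-P18 over CD-NP. Filled points are DEGs, open points are not, and the black tick is the median. The complement and interferon lists have medians of 1.10 and 1.02, and all 17 chaperone genes lie to the right of 0.

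Genes of the interferon response formed the largest group that rose among the lists. Interferons signal through receptors to the kinases of the JAK family and to a complex with STAT2 and IRF9, which binds an interferon-stimulated response element in the promoters of antiviral genes. Of 43 genes listed, 37 were tested, 31 rose and none fell, with a median log2 change of 1.02. With 1 rat left out 23 to 30 rose, the fewest without CD-NP 2 and 30 without CD-NP 1. Their summed level was 758.6 to 875.7 CPM in the NP rats and 1489 to 1770 CPM in the P18 rats. Irf9, the DNA-binding subunit of that complex, had the smallest p of all genes that rose, with 15.6, 12.8 and 14.2 CPM in the NP rats and 34.7, 36.8 and 39.5 CPM in the P18 rats. Every P18 rat was more than 2-fold above every NP rat, and the log2 change was 1.38 ± 0.11 (SE, adjusted p = 6.7e-05). Its partner Stat2 moved less, by 0.56 ± 0.11 (adjusted p = 0.015). Irf7, which amplifies the response, stood at 25.9, 11.4 and 18.2 CPM in NP and 64.5, 68.7 and 78.0 CPM in P18, again without overlap (log2 change 1.92 ± 0.33, adjusted p = 0.0071).

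Many targets downstream rose further than Irf9. Ifi27, an interferon-induced membrane protein, went from 54.0, 33.2 and 26.5 CPM to 210.5, 150.3 and 223 CPM (log2 change 2.36 ± 0.22, adjusted p = 0.00020). Oas2, a synthetase that activates the antiviral ribonuclease L, went from 3.48, 2.004 and 3.73 CPM to 13.5, 16.1 and 20.2 CPM (2.42 ± 0.29, adjusted p = 0.00083). Isg15, a ubiquitin-like modifier, went from 3.58, 1.79 and 2.63 CPM to 10.2, 15.0 and 15.8 CPM (2.34 ± 0.37, adjusted p = 0.0050). In all of these the NP rats lay below all P18 rats. Usp18, which removes Isg15 from proteins and restrains the receptor, rose by 1.99 ± 0.37, and Mx2, a dynamin-like antiviral GTPase, by 1.71 ± 0.37. The sensors of double-stranded RNA rose as well, with log2 changes of 1.02 for Ddx58, 0.85 for Ifih1, 1.59 for Dhx58 and 0.96 for the kinase Eif2ak2. The ADP-ribosyltransferases Parp12 (1.12) and Parp9 (1.04) were among the 10 genes that rose with the smallest p. Slfn4, a Schlafen gene of myeloid cells outside the list, was in the same set and went from 43.9, 20.4 and 38.4 CPM to 109.5, 133.7 and 133.2 CPM (1.87 ± 0.21). Not all members moved this way. Irf1 (-0.28 ± 0.13, adjusted p = 0.27) and Psmb9 of the immunoproteasome (-0.24, adjusted p = 0.45) did not pass the test, nor did Ifit2 (0.67, adjusted p = 0.11), Rsad2 (0.50, adjusted p = 0.13) and Zbp1 (0.43, adjusted p = 0.47).

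Promoter sequences of the RefSeq annotation (assembly GRCr8, 250 bases before to 50 after each start) were available for 22 of the 31 interferon DEGs. The core letters of the response element, GAAANNGAAA on either strand, stood in 14 of these 22 windows (63.6%). They stood in 39 of 269 windows of DEGs that rose (14.5%), 6 of 221 of DEGs that fell (2.71%), 102 of 2308 of tested genes with a symbol (4.42%) and 1034 of all 27457 windows (3.77%). The stretches below are shown since they hold these letters, in capitals, in the promoters of genes described above. Each is written 5′ to 3′ along the gene's own strand, and a stretch with TTTC at both ends of the capitals holds the element on the opposite strand.
Ifi27, chr6:128355118-128355177 (+), 169 bases before the start: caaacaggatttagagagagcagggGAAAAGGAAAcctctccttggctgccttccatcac
Irf7, chr1:205800058-205800117 (-), 69 bases before the start: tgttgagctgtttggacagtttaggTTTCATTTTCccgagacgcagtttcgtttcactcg
Parp12, chr4:68850525-68850584 (-), 18 bases before the start: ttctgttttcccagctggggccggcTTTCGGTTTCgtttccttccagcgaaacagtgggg
Oas1a, chr12:41330400-41330459 (+), 41 bases before the start: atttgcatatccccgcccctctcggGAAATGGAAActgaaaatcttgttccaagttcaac
Oas1b, chr12:41395877-41395936 (-), 59 bases before the start: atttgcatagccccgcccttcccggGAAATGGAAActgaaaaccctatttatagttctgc
Eif2ak2, chr6:21941113-21941172 (+), 16 bases before the start: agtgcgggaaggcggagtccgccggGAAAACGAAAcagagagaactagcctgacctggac
Ifih1, chr3:67683993-67684052 (-), 59 bases before the start: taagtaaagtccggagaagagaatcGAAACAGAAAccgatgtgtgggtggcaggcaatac
The paired synthetase genes Oas1a and Oas1b carry the same 10 letters, and they rose by 2.17 ± 0.34 and 1.92 on the log2 scale. A match of letters is a description of the window and does not show that a factor binds there.

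Complement and macrophage genes rose in the same rats. Complement is a cascade of plasma proteins in which C1q starts the classical pathway and C6 and C7 take part in the pore that ends it. Of 29 complement genes listed only 6 were tested, and 5 of them rose. C7 went from 259.9, 245 and 224 CPM in NP to 899.5, 772 and 784 CPM in P18, an increase above 3-fold in every P18 rat over the NP mean (log2 change 1.75 ± 0.15, adjusted p = 0.00013). C6, which lies in the same part of the cascade, stood at 2.03, 2.11 and 1.43 CPM against 24.3, 4.74 and 8.46 CPM, with the P18 rats apart from the NP rats but also far from each other (2.76 ± 0.52, adjusted p = 0.013). The 3 chains of C1q, which macrophages make, rose by 0.64 (C1qa), 1.31 (C1qb) and 0.88 (C1qc). The summed level of the 6 complement genes was 258.7 to 308.7 CPM in NP and 847.1 to 994.2 CPM in P18, most of it C7.

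Of 18 macrophage markers 9 were tested, 6 rose and none fell, with a median log2 change of 0.70. Mrc1, the mannose receptor of tissue macrophages, went from 5.90, 4.85 and 4.71 CPM to 19.1, 19.8 and 17.6 CPM (1.87 ± 0.19, adjusted p = 0.00030), with narrow, separate groups. Msr1, a scavenger receptor, went from 2.81, 1.90 and 1.754 CPM to 4.20, 8.60 and 5.40 CPM (1.47 ± 0.30, adjusted p = 0.019). The endosomal RNA receptor Tlr7 rose by 1.22 and lysozyme (Lyz2) by 0.76. General markers moved less, with 0.55 for Cd68 and 0.40 for Csf1r, the receptor for the macrophage growth factor, whose groups touched (58.75 CPM in CD-NP 3 against 58.71 CPM in CD-P18 1). Tlr8 (0.70, adjusted p = 0.13), Mpeg1 (0.37, adjusted p = 0.18) and Aif1, a general marker of the lineage (-0.085, adjusted p = 0.89), did not pass the test. The 6 calls fell to 4 without CD-NP 2. Siglec1, a sialic acid receptor of macrophages outside the list and an interferon-inducible gene, had one of the widest changes, from 2.61, 0.95 and 1.43 CPM to 10.7, 18.5 and 13.6 CPM (3.07 ± 0.38, adjusted p = 0.0010). The summed level of the 9 markers was 287.5 to 373.2 CPM in NP and 463.3 to 585.8 CPM in P18, and its part in the rise of the interferon and complement genes was not tested. Among markers of other blood cells none was called higher. Of the T, B and NK cell list 2 genes were tested, and Cd28, the co-stimulatory receptor of T cells, fell (-1.50 ± 0.40, adjusted p = 0.065, 4 to 41 reads per rat), a call that was lost without any 1 of the rats but CD-P18 2. No gene of the neutrophil list was tested. Of 8 genes for antigen presentation none rose and 2 fell, among them Ciita, the master regulator of class II genes, from 16.8, 13.9 and 18.1 CPM to 9.51, 11.9 and 7.95 CPM (-0.74 ± 0.15, adjusted p = 0.019). Called histocompatibility (RT1) genes outside the list went both ways, with log2 changes from -1.46 to 1.65, so the list does not stand for that family.

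**Figure D4:**
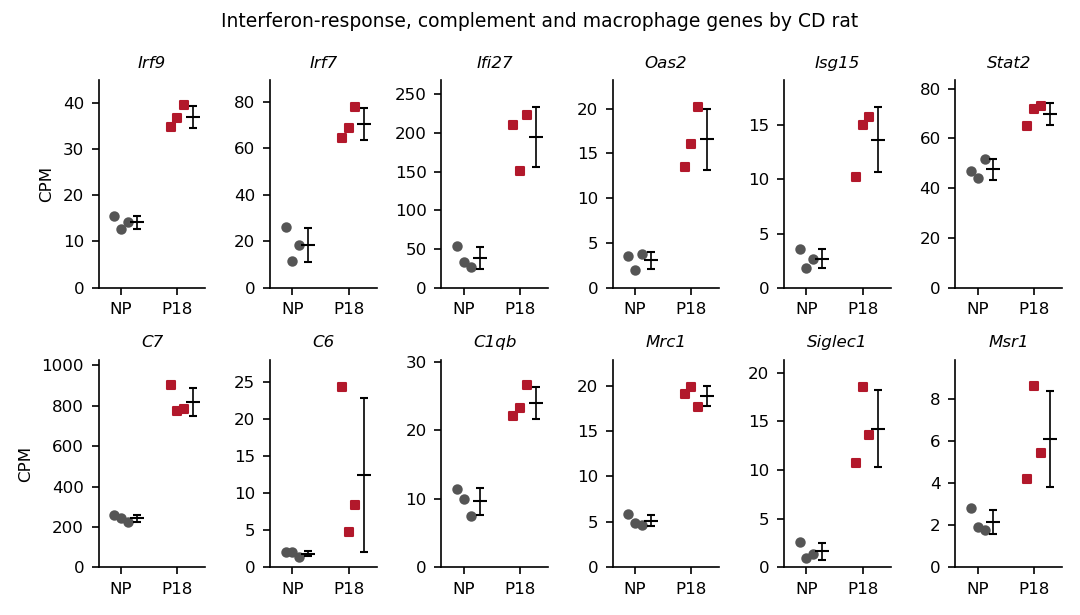
Levels (CPM, axes from 0) of interferon-response, complement and macrophage genes in the 3 CD-NP rats (circles) and the 3 CD-P18 rats (squares), with the mean and SD of each group beside them. In each of the 12 panels all P18 rats lie above all NP rats, and C6 shows the widest spread among P18 rats (4.74 to 24.3 CPM).

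Genes of the circadian clock changed in both directions. Its core is a loop in which Arntl (BMAL1) with Clock or Npas2 switches on the Per and Cry genes, whose proteins then block it, and Nr1d1 (REV-ERBα) represses Arntl and Npas2. Of 19 genes listed 9 were tested, and 8 were DEGs, 5 higher and 3 lower. In the activating arm, Npas2 fell from 20.1, 11.1 and 9.97 CPM to 3.26, 3.42 and 3.16 CPM (-2.07 ± 0.25, adjusted p = 0.00084), and Arntl from 12.1, 12.3 and 4.28 CPM to 4.03, 3.42 and 2.04 CPM (-1.59 ± 0.36, adjusted p = 0.034). For Arntl the gap between the groups was narrow, as CD-NP 3 was close to CD-P18 1. The repressor Nr1d1 fell as well, from 258, 282 and 309 CPM to 79.7, 87.9 and 108.9 CPM (-1.62 ± 0.16), and with an adjusted p of 0.00021 it was the gene that fell with the smallest p.

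The negative arm of the loop rose. Cry1 went from 3.97, 4.54 and 5.37 CPM to 15.1, 14.7 and 14.2 CPM (1.67 ± 0.20, adjusted p = 0.00083). Per2 went from 80.0, 98.4 and 117 CPM to 214, 207 and 235 CPM (1.15 ± 0.17, adjusted p = 0.0033). Per1 went from 103, 152 and 168 CPM to 246.5, 212 and 228 CPM (0.70 ± 0.17, adjusted p = 0.050). The output factors Hlf and Tef, PAR-domain proteins that carry the rhythm to metabolic genes, rose by 0.59 and 0.45. Rora, which opposes Nr1d1, was 0.30 ± 0.076 higher and did not reach the minimum fold. The 8 calls fell to 5 without CD-P18 3 and stood at 7 without CD-NP 1. The hour of tissue collection is not given in the sources used here. The E-box letters CACGTG were in the window of Tef alone among the 6 clock DEGs with a RefSeq promoter, against 8.93% of windows of tested genes with a symbol and 6.65% of all windows.

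Chaperone genes, many of them of the endoplasmic reticulum, rose by small steps. Chaperones of that compartment fold secreted and membrane proteins, and their genes are switched on together when unfolded protein accumulates. Of 26 listed genes 17 were tested, with cytosolic ones such as Hspa8 among them. All 17 had a positive log2 change (median 0.34), and 9 were DEGs. Their summed level was 3124 to 3298 CPM in NP and 3855 to 4305 CPM in P18. Hspa5 (BiP), the main chaperone of the endoplasmic reticulum, went from 362, 379 and 403 CPM to 652, 607 and 554 CPM (0.66 ± 0.087, adjusted p = 0.0014). Hspa8, the constitutive chaperone of the cytosol, went from 499.9, 494 and 557 CPM to 745, 726 and 715 CPM (0.50 ± 0.073, adjusted p = 0.0029). Both are among the 5 most abundant genes with a symbol that rose, and their groups were separate by wide gaps. The secreted factors Creld2 and Manf rose by 0.57 and 0.51, Herpud1, which helps to degrade misfolded proteins, by 0.51, and the folding factors Pdia4 and Hyou1 by 0.39 and 0.38. The transcription factor Xbp1 rose by 0.34 ± 0.068 (adjusted p = 0.019). Hsp90b1 (0.27), Calr (0.24), Atf4 (0.29) and the heat shock gene Hsph1 (0.32) were not called. The count of 9 fell to 5 without CD-NP 1 and also without CD-P18 1.

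The ER stress response element, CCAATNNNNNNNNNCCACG on either strand, stood in 3 of the 8 RefSeq promoters of these DEGs. It stood in 7 of 2308 windows of tested genes with a symbol (0.303%), 21 of all 27457 windows (0.0765%) and none of the 221 windows of DEGs that fell. The 3 stretches are shown for that reason, with the element in capitals and in reverse for Creld2.
Hspa5, chr3:38452948-38453016 (+), 43 bases before the start: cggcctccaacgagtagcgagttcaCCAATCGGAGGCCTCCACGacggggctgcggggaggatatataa
Xbp1, chr14:84604533-84604601 (+), 65 bases before the start: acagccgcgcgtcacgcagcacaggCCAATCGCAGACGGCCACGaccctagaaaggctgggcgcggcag
Creld2, chr7:121789214-121789282 (+), 145 bases before the start: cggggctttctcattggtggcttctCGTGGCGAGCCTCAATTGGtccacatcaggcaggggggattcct

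Podocyte genes fell. Of 10 listed 4 were tested, 3 fell and none rose. Nphs1 (nephrin), which spans the slit between the foot processes, went from 91.5, 153.5 and 95.7 CPM to 73.3, 79.6 and 75.0 CPM (-0.58 ± 0.15, adjusted p = 0.063), and Ptpro, a podocyte phosphatase, fell by 0.52 ± 0.12 on the log2 scale (adjusted p = 0.034). CD-NP 2 was the highest NP rat for both. Podxl, the sialomucin that coats the foot processes, was at -0.30 ± 0.083 (adjusted p = 0.076) and did not reach the minimum fold. The summed level of the 4 genes was 773.3 to 1020 CPM in NP and 612.7 to 692.5 CPM in P18. Without CD-NP 2 or without CD-P18 3 only 1 of the 3 calls was left, while 4 genes were called without CD-NP 1.

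Along the tubule most of the listed genes were not tested. Among all tested genes with a symbol 21.3% were DEGs. Of 30 proximal tubule genes 13 were tested, 3 fell and 1 rose, against a median of -0.10. Slc34a1, the sodium-phosphate cotransporter of the brush border, went from 2575, 3137 and 2435 CPM to 2199, 1999 and 1672 CPM (-0.47 ± 0.13, adjusted p = 0.082). Among genes with a symbol that fell, Slc34a1 was the most abundant. Pth1r, the parathyroid hormone receptor that lowers this transporter's activity, fell too, from 279, 294 and 241 CPM to 189, 197 and 186 CPM (-0.51 ± 0.10, adjusted p = 0.016), with the groups well apart. The organic anion transporter Slc22a13 fell by 0.76 ± 0.18 and Acmsd, an enzyme of tryptophan breakdown, by 0.62 ± 0.16. Slc9a3 (NHE3), the sodium-proton exchanger of the proximal tubule, rose from 251, 268.5 and 311 CPM to 347, 322 and 379.9 CPM (0.34 ± 0.092, adjusted p = 0.072). The 4 proximal calls fell to 2 without CD-NP 1 or CD-P18 1 and to 1 without CD-NP 2, CD-P18 2 or CD-P18 3.

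In the distal convoluted tubule, Slc12a3 (NCC), the thiazide-sensitive sodium-chloride cotransporter, fell from 857.5, 807 and 879.7 CPM to 601.5, 641.5 and 635 CPM (-0.44 ± 0.082, adjusted p = 0.012). Klhl3, an adaptor of the ubiquitin ligase that degrades the kinases activating this transporter, fell by 0.55 ± 0.14 (adjusted p = 0.048), a call that was lost without CD-NP 2, CD-P18 1 or CD-P18 3. These were the 2 called of 5 tested genes of this segment, out of 13 listed, and all 5 had a negative log2 change. In the list of collecting duct and sodium channel genes, Atp1b1, the beta subunit of the sodium pump and the most abundant gene with a symbol that rose, went from 1974, 1891 and 2014 CPM to 2648, 2297 and 2637 CPM (0.37 ± 0.083, adjusted p = 0.032). Tsc22d3 (GILZ), a target of corticosteroid receptors, went from 73.2, 54.0 and 76.4 CPM to 208, 147 and 184.5 CPM (1.41 ± 0.18, adjusted p = 0.0010). Values of a whole cross-section do not place either change in the collecting duct. The sodium channel subunits Scnn1a (0.30, adjusted p = 0.12) and Scnn1b (-0.24, adjusted p = 0.19) did not pass the test. In the thick ascending limb Bsnd, a subunit of chloride channels, was not called (-0.27, adjusted p = 0.25), and none of the 9 intercalated cell genes was. Slc6a6, the taurine transporter and the only tested gene of the inner medulla list, rose by 0.49 ± 0.11 (adjusted p = 0.026).

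**Figure D5:**
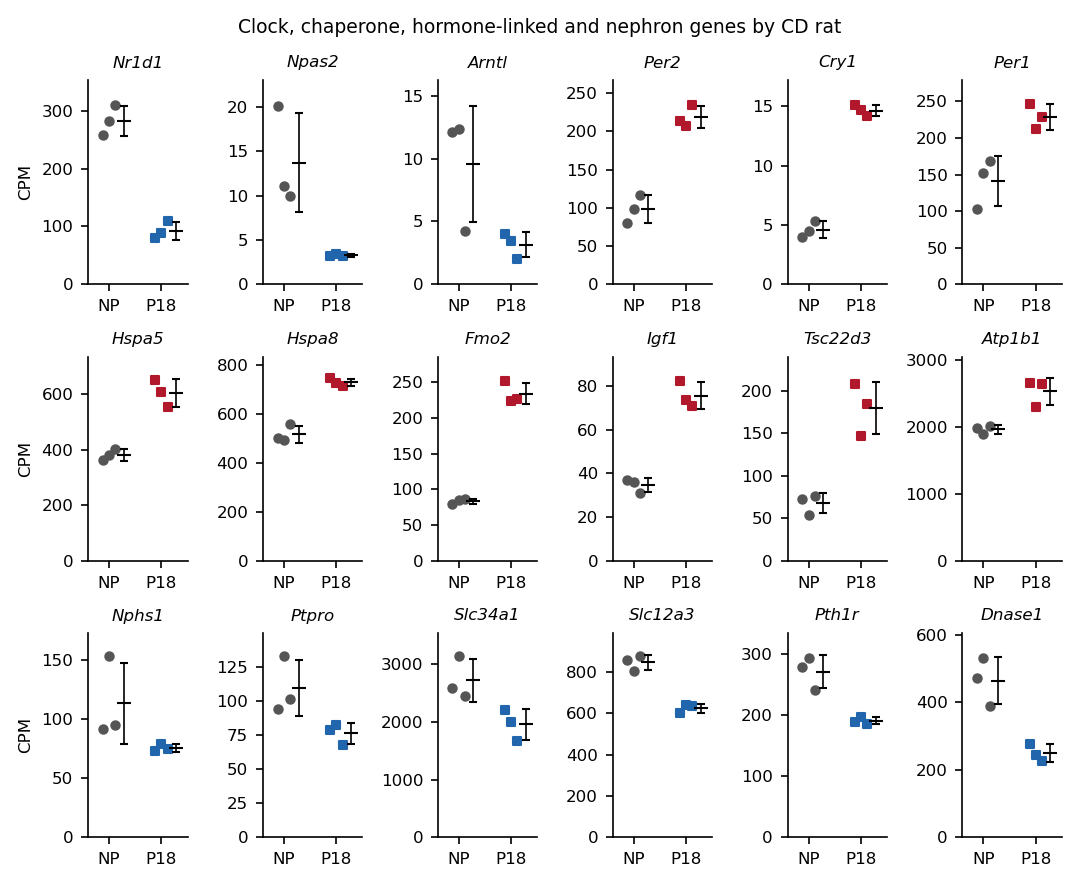
Levels (CPM, axes from 0) of clock, chaperone, hormone-linked and nephron genes in the 3 CD-NP rats (circles) and the 3 CD-P18 rats (squares), with the mean and SD of each group beside them. Squares are red where the gene was higher at P18 and blue where it was lower, and no panel has overlapping groups, although the gap is narrow for Arntl (4.28 against 4.03 CPM).

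Genes of growth and hormone signalling changed in part. Igf1, the growth factor downstream of growth hormone, went from 37.0, 36.1 and 31.2 CPM to 82.4, 73.4 and 70.7 CPM (1.12 ± 0.16, adjusted p = 0.0021). Socs3, a feedback inhibitor of cytokine receptors, rose by 1.55 ± 0.45 (adjusted p = 0.086), with 10 to 64 reads per rat. These were 2 of 9 tested genes of the prolactin, growth hormone and STAT5 list, and Ghr (0.098), Socs2 (0.21) and Stat5a (-0.39) were not called. That count is near the 21.3% of all tested genes with a symbol that were DEGs. The thyroid hormone receptor Thra, which overlaps the end of Nr1d1 on the opposite strand, fell by 0.50 ± 0.11 (adjusted p = 0.025). The use of strand in the counting is not given in the sources used here, so reads of this pair may be shared. In the renin-angiotensin list Ace, the enzyme that forms angiotensin II, was the gene called of 3 tested. It fell from 27.6, 29.2 and 37.2 CPM to 21.7, 24.1 and 17.8 CPM (-0.56 ± 0.13, adjusted p = 0.037). Of 8 vasoactive genes 2 fell, among them the vasodilator adrenomedullin (Adm, -0.63 ± 0.18, adjusted p = 0.081). Neither was called without CD-NP 2, and Adm kept its call in only 1 of the fits without a rat, that without CD-NP 1. The call of Ace was lost without CD-NP 3 or CD-P18 3, and that of Socs3 without any rat but CD-P18 2. Of 10 tested genes for vitamin D, calcium and phosphate the called ones were Slc34a1 and Pth1r, described above.

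Metabolic lists moved little, with a few strong members. Fmo2, a flavin monooxygenase, went from 79.4, 84.6 and 86.4 CPM to 251, 224 and 227 CPM (1.49 ± 0.14, adjusted p = 0.00020) and had the third lowest p among the genes that rose. Other detoxification genes that rose were Cyp1a1 (1.63 ± 0.43, adjusted p = 0.064) and Cyp1b1 (1.33 ± 0.25, adjusted p = 0.013), both targets of the aryl hydrocarbon receptor, and Gclm (0.39 ± 0.12, adjusted p = 0.098), a subunit of the enzyme that starts glutathione synthesis. Cyp2e1 fell from 401, 448 and 342 CPM to 275, 287 and 257 CPM (-0.54 ± 0.094, adjusted p = 0.0078). The other 15 of 20 tested detoxification genes were not called, and the 5 calls fell to 3 without CD-P18 3. Over all tested genes with a symbol 21.3% were DEGs, so this list was near the general share. Of 12 tested genes for cholesterol synthesis and uptake, 2 fell and none rose, and neither call was left without CD-NP 2 or without CD-P18 3. Iron and metal genes split, with the ferrireductase Steap4 at 0.99 ± 0.11 (adjusted p = 0.00083) and ceruloplasmin (Cp) at 0.69 ± 0.17 higher and the metallothionein Mt1 at -0.76 ± 0.22 lower. The 4 calls of this list fell to 1 without CD-NP 3 and to 2 or fewer without any other rat, with Steap4 called in each of these fits. None of 4 tested genes for gluconeogenesis and ammonia was called.

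Cell division genes rose from low levels. Cdk1, the kinase that starts mitosis, had 4 to 6 reads per NP rat and 12 to 27 per P18 rat (1.87 ± 0.37, adjusted p = 0.016), and Mki67 went from 16.5, 9.60 and 20.9 CPM to 28.8, 25.1 and 23.1 CPM (0.71 ± 0.21, adjusted p = 0.092). Of 9 tested cell cycle genes 3 rose, and 1 call was left without CD-NP 1, CD-NP 2, CD-P18 1 or CD-P18 2. Of 7 tested endothelial genes 1 was called higher and 1 lower. Such counts are too small to tell from the 11.5% and 9.79% of genes with a symbol called higher and lower. Von Willebrand factor (Vwf) rose from 41.2, 54.6 and 53.4 CPM to 83.4, 92.2 and 67.1 CPM (0.70 ± 0.14, adjusted p = 0.014). Egfl7 was called lower (-0.51 ± 0.15, adjusted p = 0.094), a call that was lost in every fit without a rat. Of the matrix genes Mmp2, a gelatinase, was the 1 called of 11 (0.74 ± 0.17). None of 6 tested markers of tubule injury passed the test, although Havcr1 (KIM-1), at 3 to 5 reads per NP rat and 7 to 19 per P18 rat, had a log2 change of 1.73 ± 0.57 (adjusted p = 0.13). None of 11 tested immediate early genes passed it either.

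Several of the most significant genes belong to none of these groups. Gramd1b, a carrier of cholesterol from the plasma membrane, rose from 113, 117 and 105 CPM to 272, 211 and 248 CPM (1.13 ± 0.12, adjusted p = 0.00048). Among genes that fell, Ggct, an enzyme of glutathione breakdown, went from 173, 191 and 228 CPM to 106, 101 and 98.0 CPM (-0.95 ± 0.12, adjusted p = 0.00094). Dnase1, the secreted nuclease, went from 472, 531 and 390.3 CPM to 278, 244 and 228 CPM (-0.89 ± 0.15, adjusted p = 0.0066). In both the groups were far apart. Ptcd3, a mitochondrial ribosome protein, fell by 0.88 ± 0.14, and Aldh1a1, which makes retinoic acid, by 0.63 ± 0.088. The lysosomal channel Tpcn1 (-0.60), the lipid carrier Osbpl3 (-0.60), the kinase Cdkl1 (-0.73), the secreted protein Scube3 (-0.70) and Fam149a (-0.44) complete the 10 lowest p-values among genes that fell. Of the abundant genes that fell, Lifr, a cytokine receptor, changed by -0.41 ± 0.11 and Sdc4, a heparan sulfate proteoglycan, by -0.34 ± 0.061.

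Several of the widest changes were in scarce genes. Akr1c2, an aldo-keto reductase, had 2, 3 and 3 reads in the NP rats and 3047, 2192 and 10 reads in the P18 rats, or 261, 242 and 1.02 CPM in the latter, so that 1 P18 rat was like the NP rats. No fold is given, since all NP rats had 3 reads or fewer. It was called (adjusted p = 0.0076), but it belongs to a family with near-identical copies, and in the BN rats its mean was 197 CPM at NP and 265 CPM at P18. Akr1c1, which lies next to it, rose by 0.86 ± 0.19. The transcription factor Grhl1 rose from 1.16, 1.16 and 0.66 CPM to 6.00, 7.93 and 4.59 CPM (2.61 ± 0.33, adjusted p = 0.0010), and RGD1560020_predicted rose by 2.83 ± 0.53. Among genes with a symbol and a mean of at least 1 CPM, Spetex-2F had the widest decrease (-2.70 ± 0.72, 13 to 32 reads per NP rat against 2 to 5 per P18 rat). Npas2 came next, followed by Pou3f1 (-1.93 ± 0.50), Foxl1 (-1.89 ± 0.57) and Grm8 (-1.76 ± 0.46). Apart from Npas2 their adjusted p lay between 0.059 and 0.099, and each of these 4 lost its call in most fits without 1 rat.

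Some DEGs lie next to each other in the genome. By the order of protein-coding genes in RefSeq, 614 DEGs could be placed, and they formed 41 neighbouring pairs, of which 31 changed in the same direction. No such shares were computed for neighbouring genes in general, so neither count is read as more than the usual rate. Pairs that rose included Oas3 with Oas2, Parp9 with Dtx3l and Dtx3l with Parp14, Ifi44 with Ifi44l, the C1q genes, Sectm1b with Sectm1a, and a run of histocompatibility (RT1) genes. Klk1c6 and Klk1c2, kallikrein genes of a multigene family, fell together by 1.29 and 1.14. The reads of near-identical neighbours may be split in the counting, so values of such families are uncertain. Pairs with opposite signs were found too, such as Osmr (0.47) and Lifr (-0.41), receptors of related cytokines.

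The change in CD was set beside that in BN, which has its own control rats. Of the 669 CD DEGs, 402 had the same sign in BN, and 80 were DEGs in BN, 76 of them in the same direction. The same shares over all genes tested were not computed, so these counts do not show agreement beyond the general rate. The change differed between the strains for 100 CD DEGs (14.9%) at an adjusted p under 0.1 for the interaction of pregnancy with strain, against 134 of all genes tested (0.943%). The CD change that chose the DEGs is itself part of this interaction. A higher share among them was thus built in by the choice and is no evidence of a strain difference. The interferon genes were not among these where they are named above. Irf9, for example, went from 14.2 to 31.0 CPM in BN (interaction adjusted p = 0.52) and Ifi27 from 29.6 to 66.1 CPM (0.13). By contrast Mrc1 was 7.94 and 6.89 CPM in BN, Fmo2 was 115 and 88.6 CPM, and Nr1d1 was 185 and 191 CPM, in NP and P18. For these genes the difference itself passed the test.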

How the data were processed

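RNA-seq of 12 rat kidneys was used. The authors trimmed reads with Trimmomatic, aligned them to Rnor_6.0 with STAR 2.5.2 and counted them with HTSeq 0.6.1 (versions from the submitters' processing notes), and deposited raw counts per gene with 1 column per rat. The annotation release and strand setting are not given in the sources used here. Summary lines that name no gene (72.5 to 75.6% of entries per library) were left out, as reads with several alignments are not counted on a gene. Methylation files were not analysed here. No value column of the count table was left unused (0).

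In R 4.3.3, edgeR 4.0.16 (filterByExpr over 4 groups, TMM, 1 quasi-likelihood fit over 12 libraries without covariates) gave the CD change and its interaction with strain. This procedure recovered known changes when tested on simulated data. Changes as small as those of many DEGs here were not simulated. Standard errors were derived from the F statistic. DEGs had an adjusted p under 0.1 and a fold over 1.25. Symbols were paired with identifiers through the study's gene table by matching fold changes and mean levels within 0.03 log2 (3059 of 3060 symbols, 2642 of 2642 cross-checks held, 6.57% with the sign turned), for identity alone. Motifs were searched in RefSeq promoters of GRCr8, since no sequence of Rnor_6.0 was used.

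Groups and replicate numbers come from the labels, which name no batch. Named genes were the 10 DEGs per direction with the smallest p, the 5 with the widest change at a mean of at least 1 CPM, the 5 most abundant, and list members, some of which are not reported here. Akr1c1, histocompatibility genes outside the list, neighbouring genes and genes in the closing section were added after their values were seen. Members and lists were chosen with earlier results of these data known. Alternatives were other scalings, filters, thresholds, DESeq2, the 6 CD libraries alone, a replicate block and leaving out each rat.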

Additional observations from a re-analysis of the deposited data

Results flagged for a closer look

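Genes named in the report or in the closing observations whose change in CD differed from that in BN, at an adjusted p under 0.1 for the interaction of pregnancy with strain (edgeR's quasi-likelihood test, 3 rats per group), were marked for a closer look. Values are the log2 change in BN minus that in CD. Where the gene rose in CD, a negative value means that it rose less in BN or fell there.

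Among genes higher in CD, the difference was -1.87 for Fmo2 (adjusted p = 0.0025), -2.08 for Mrc1 (0.0070), -1.37 for Gramd1b (0.0070) and -1.24 for Steap4 (0.0076). For complement it was -1.02 for C7 (0.051) and -1.02 for C1qb (0.087). For the chaperones it was -0.74 for Hspa5, -0.59 for Hspa8, -0.45 for Hyou1, -0.72 for Manf and -0.44 for Pdia4. The corticosteroid-linked genes gave -1.55 for Tsc22d3, -1.85 for Fkbp5 and -1.40 for Zbtb16. The metabolic genes gave -2.01 for Gldc and -1.61 for Odc1, the transporter Slc28a1 gave -1.36, and Grhl1 gave -2.32. Akr1c2 gave -8.75, a fitted value that rests on 3 reads or fewer in each CD-NP rat.

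Among clock genes the difference was 2.54 for Npas2 and 1.66 for Nr1d1, which fell in CD, and -1.76 for Cry1, -1.18 for Per2 and -0.53 for Rora. Among other genes lower in CD it was 1.29 for Ggct, 0.90 for Scube3, 0.71 for Cdkl1, 0.61 for Tpcn1, 0.60 for Aldh1a1, 0.59 for Osbpl3, 0.55 for Fam149a, 0.91 for Dnase1 and 0.43 for Sdc4. The transporters Slc12a3 and Slc22a13 gave 0.54 and 1.18, Ace gave 1.07 and Ciita 1.11.

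For Cyp1a1 every P18 rat was above the NP rats in CD and below them in BN, and the difference of -2.95 did not pass the test (adjusted p = 0.13). Groups of 3 rats are too small to look for single outlying rats.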

How the results depend on the processing

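At an adjusted p under 0.05 and a fold over 1.5 there were 225 DEGs (151 higher, 74 lower) in place of 669. With each CD rat left out in turn the count ran from 327 to 715, and the count of CD DEGs whose change differed from BN, 100 with all rats, ran from 50 to 204. Without a filter on low counts the latter was 209. Replicate numbers did not pair the CD rats, since deviations of same-numbered rats correlated at -0.058, -0.089 and 0.10, and not every sample was closest to its own number. The fit with the replicate block gave 819 DEGs and 217 genes that differed from BN. Other scalings, filters and thresholds, the 6 CD libraries alone and DESeq2 gave 564 to 850 DEGs, with DESeq2 at 725, of which 621 were shared. Upper-quartile scaling turned the split to 315 higher and 361 lower. The cause of these shifts was not tested.

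Single genes were followed in edgeR refits with other scalings or filters, the replicate block, the CD libraries alone or a CD rat left out. They were not followed under DESeq2 or at the stricter thresholds, where Hspa8, at a fold of 1.41, falls short of 1.5. All 127 called genes named here kept their direction in every edgeR refit that tested them, and 70 kept their call. The others lost it in at least 1 fit without a CD rat, most often without CD-NP 2 (44 genes) or CD-P18 3 (40), and 21 lost it without CD-NP 1. Their adjusted p in the full fit lay between 0.0085 (Sdc4, close to the minimum fold) and 0.099. Upper-quartile scaling ended the calls of Csf1r, Gclm, Slc9a3 and Xbp1. Aif1, which was not called, ran from -0.329 without CD-P18 3 to 0.0643 without CD-P18 1. Scarce genes had standard errors near 0.46, so changes under about 2-fold were rarely detectable there.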

Other observations

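Further DEGs, picked after their values were seen and so not counted in any list, fall into groups of known function. Enzymes of amino acid and one-carbon metabolism rose, with log2 changes of 1.69 for Gldc (glycine cleavage), 1.89 for Sds (serine dehydratase), 0.66 for Prodh1 (proline breakdown), 0.92 for Odc1 (polyamine synthesis), 0.84 for Asns (asparagine synthesis) and 0.94 for Mthfd1l (mitochondrial folate enzyme), whereas Bhmt, which remethylates homocysteine, fell by 1.12. Among solute carriers the nucleoside transporter Slc28a1 (1.07) and the cationic amino acid transporter Slc7a2 (1.20) rose, and the fructose transporter Slc2a5 (-0.70) and the phosphate and urate carriers Slc17a3 (-0.44) and Slc17a4 (-0.63) fell. Asns (adjusted p = 0.065), Slc7a2 (0.092) and Slc17a3 (0.086) lost their call with the 6 CD libraries alone and in most fits without 1 rat. Gldc, Bhmt and Slc28a1 kept theirs in all of these fits, and the other genes of this paragraph lost it in at least 1.

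Some genes known as targets of the glucocorticoid receptor were picked because they were higher at P18, so they show no direction for such targets in general, and Mt1, which glucocorticoids also induce, was lower (-0.76). Fkbp5, a co-chaperone of that receptor, went from 19.1, 27.1 and 27.0 CPM in the NP rats to 101.5, 57.1 and 87.8 CPM in the P18 rats (log2 change 1.76 ± 0.30). Zbtb16 rose by 1.57 ± 0.23, Cebpd by 0.95 ± 0.16 and Ddit4 by 0.56 ± 0.13, and in none of the 4 did the groups overlap. Single genes of endothelial cells outside the list, picked in the same way because they were lower, were Thbd (-0.57), the thrombin receptor that limits clotting, Cd93 (-0.74), Esm1 (-0.62) and the apelin receptor Aplnr (-0.88), while the endothelium list itself held 1 gene higher, 1 lower and 5 not called.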
